A study of Mus musculus with 4 samples.

Results

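BET proteins, the kinase P-TEFb with its cyclins, the 7SK complex, NELF and DSIF together set how RNA polymerase II (RNAPII) leaves its paused state close to a gene's start. Transcripts of 9 genes of this machinery (Brd2, Brd3, Cdk9, Ccnt1, Ccnt2, Hexim1, Larp7, Nelfa and Supt5) were examined in mouse embryonic fibroblasts (MEF cells) with or without the DNA topoisomerase Top2β. They were taken by name from the 54842 genes of the counts table, and all 9 passed the filter on low counts. There were 2 libraries of wild-type (wt) and 2 of Top2β-null (labelled top2beta null) MEF cells, all untreated and grown in the same medium with serum. The null cells derive from mice without Top2β and came from other laboratories, and the methods cite a separate source for the wt MEF cells. The source of the cells and the missing Top2β therefore cannot be told apart. Nothing in the labels says whether the libraries of a genotype came from separate cultures, so p-values measure the spread between these libraries, which may be technical. In bulk RNA, fewer expressing cells and less RNA per cell cannot be told apart either.

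After initiation, RNAPII is held a short way into a gene by DSIF and NELF. P-TEFb, which is Cdk9 bound to a T-type cyclin (Ccnt1 or Ccnt2), phosphorylates both factors and the polymerase, after which elongation proceeds. Part of P-TEFb is kept inactive by Hexim proteins on the 7SK RNA, which Larp7 binds and protects. BET proteins read acetylated histones through their bromodomains and help bring P-TEFb to active genes, and JQ1, a compound that displaces BET proteins from chromatin, was used elsewhere in the study.

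The targeted gene, Top2b, was at 18259 and 18465 normalized counts in wt and at 3879 and 3789 in null libraries. Total counts per library lay between 133116830 and 149647278. All 12 fibroblast markers were detected in every library. Their level nevertheless shifted with genotype, with 5 higher and 6 lower in the null libraries at an adjusted p below 0.05 (edgeR), and a summed level of 1348322 to 1371989 normalized counts in wt and 932643 to 937631 in null libraries. Matrix genes of fibroblasts moved both ways, with Postn at 2549 and 2653 raw counts in wt and 40 and 47 in null libraries, and Dcn at 224 and 231 in wt and 6810 and 7309 in null libraries. Markers of leukocytes summed to 2412 and 2490 in wt and 1346 and 1349 in null libraries, a fall that lay in Cd68 (1626 and 1748 raw counts in wt, 292 in each null library), while the other 3 tested markers of this list (Csf1r, Fcer1g and Itgam) rose (edgeR). Ptprc had 7 raw counts or fewer and Tyrobp 0 in every library. Epithelial markers summed to 74.7 and 88.9 normalized counts in wt and to 14.5 and 13.9 in null libraries, and all 3 tested were lower (edgeR). Endothelial markers summed to 171.6 and 173.9 in wt and to 262.0 and 261.5 in null libraries. Of the 5 endothelial markers tested, 1 was higher (Kdr) and 1 lower (Tek) by the same test. The part of these shifts in the results below was not tested.

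In Top2β-null MEF cells, 4 of the 9 transcripts fell (Hexim1, Ccnt1, Brd2 and Cdk9) and 3 rose (Ccnt2, Brd3 and Larp7), while Nelfa and Supt5 did not pass the test. The threshold was an adjusted p below 0.05 (edgeR, quasi-likelihood), adjusted by Benjamini-Hochberg over the 26566 genes and repeat families tested. By this threshold 65.0% of all features were called, 32.5% as higher and 32.5% as lower, so that 7 of 9 members is near the background. All changes were modest, the greatest being a 1.53-fold lower level of Hexim1. None of the 9 genes passed the cut-offs of the study's methods (adjusted p below 0.05, absolute log2 fold change above 1 and mean normalized count above 100), which 10.2% of all features passed with edgeR (5.27% as higher and 4.97% as lower), and none did with DESeq2. At an unadjusted p below 0.05, 7 of the 9 passed, as did 67.5% of all features (edgeR). The median absolute log2 fold change was 0.20 over the 9 genes and 0.40 over all features tested. Among the 7132 protein-coding genes at least as abundant as Hexim1, the least abundant of the 9 genes by count, it was 0.29 and 86.2% were called. The null and wt libraries did not overlap for 8 of the 9 genes, against 80.5% of all features.

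**Figure D1:**
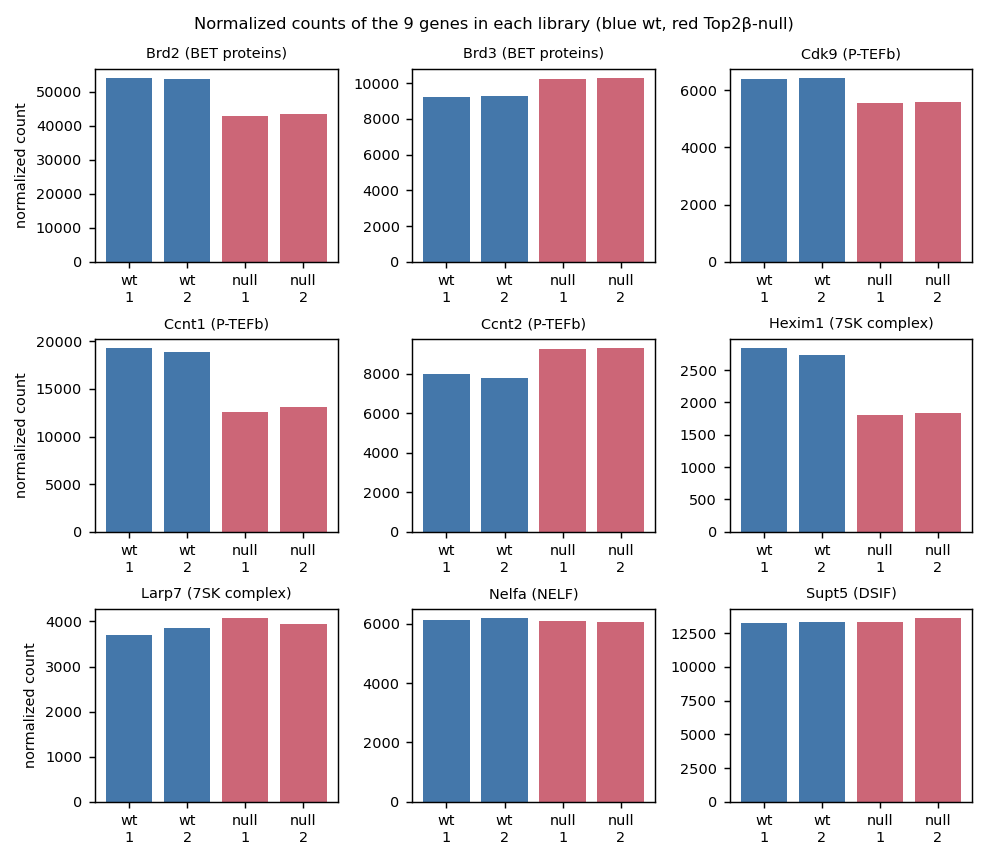
Normalized counts (vertical axis, from 0) of each of the 9 genes in the 2 wt libraries (blue) and the 2 Top2β-null libraries (red). Null bars are below both wt bars for Brd2, Cdk9, Ccnt1 and Hexim1 and above them for Brd3, Ccnt2 and Larp7, while Nelfa and Supt5 are nearly level.

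**Figure D2:**
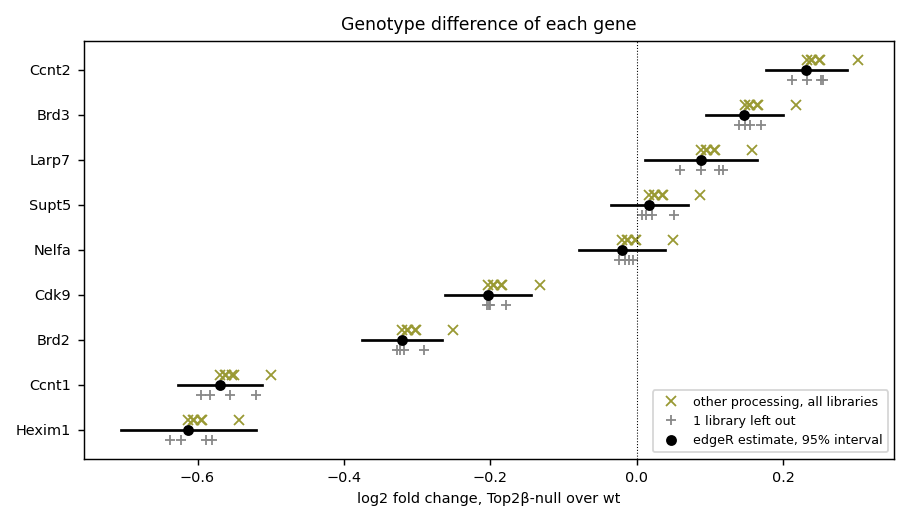
Log2 fold change of each gene in Top2β-null over wt MEF cells. Black points are edgeR estimates with 95% intervals, crosses are other processing of all 4 libraries, and plus signs leave out 1 library. The estimates run from -0.61 for Hexim1 to 0.23 for Ccnt2, and of the 9 intervals those of Nelfa and Supt5 include 0.

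To see what the 4 genes that fell have in common in sequence, promoters were read from RefSeq (GRCm38.p6), as 300 bases from 250 before to 50 after each annotated start. All 9 genes matched, with 11 starts, since Brd2 has 3. Their GC content was 58.7% to 78.3%, against a median of 52.7% over 32851 promoters, and they held 14 to 46 CpG dinucleotides against a median of 7. The GC box GGGCGG (either strand) was present for all 9 genes, in 10 of 11 starts, and in 35.7% of all promoters. None held the TATA box TATAAA, which 13.6% of all promoters did. The CCAAT box (either strand) was found for Ccnt2, Cdk9, Hexim1 and Larp7 and in 37.4% of promoters. The GC box and the lack of a TATA box were thus common to all 9 genes, whichever way they moved, and the CCAAT box was not. For the 4 genes that fell, the 30 bases around the GC box nearest upstream of a start are shown 5′ to 3′ on the gene's strand, with the motif in capitals; a match is a description of the letters and not of a bound site.
Ccnt1: cttcggctttctGGGCGGaagtgtgtcaca
Hexim1: acgcatgcgcatGGGCGGggcttacaagct
Brd2: atgggatgttttGGGCGGgcgaggggaggg
Cdk9: gggcctggcggcGGGCGGagaccggaagag
On GRCm38 these windows are chr15:98567767-98567796 (reverse strand), chr11:103116168-103116197 (forward), chr17:34121826-34121855 (reverse) and chr2:32712807-32712836 (reverse). The GC box begins 48 bases before the RefSeq start of Ccnt1, 145 before that of Hexim1, 96 before the start of Brd2 and 40 before that of Cdk9. GENCODE M21, the source of the gene bounds given below, places the outermost start of all 4 genes further upstream, so that the windows of Ccnt1, Brd2 and Cdk9 lie within the GENCODE gene and that of Hexim1 lies just before it.

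The BET genes moved apart. Brd2, on chromosome 17 from 34112023 to 34122634 (GRCm38, reverse strand), encodes a BET protein with a pair of bromodomains. It had 53864 and 53634 normalized counts in wt and 42760 and 43316 in null libraries, so that both null libraries lay below both wt libraries. Its log2 fold change was -0.32 (standard error 0.025, 95% interval -0.37 to -0.27, adjusted p = 1.2e-08 from edgeR), that is, the mean fell by 19.9%. Brd3 (chromosome 2, 27445579 to 27507662, reverse strand), a close relative of Brd2, had 9211 and 9311 normalized counts in wt and 10243 and 10266 in null libraries. It rose by 10.7% (log2 fold change 0.15, standard error 0.025, 95% interval 0.094 to 0.20, adjusted p = 7.5e-05 from edgeR). Summed per kb of merged exons, Brd2 and Brd3 fell from 8130 ± 11.1 to 6897 ± 52.5 normalized counts per kb (SD, n = 2), and the share of Brd2 in this sum went from 84.5% to 79.7%. This sum was chosen after the values had been seen.

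Within P-TEFb, the kinase and its major cyclin fell while the second cyclin rose. Cdk9 (chromosome 2, 32705784 to 32713076, reverse strand), the catalytic subunit, had 6396 and 6412 normalized counts in wt and 5554 and 5573 in null libraries. Replicates were close to each other, and the null level was lower (log2 fold change -0.20, standard error 0.027, 95% interval -0.26 to -0.14, adjusted p = 7.3e-06 from edgeR). Ccnt1 (chromosome 15, 98538689 to 98570923, reverse strand) encodes cyclin T1. It had 19256 and 18883 normalized counts in wt and 12598 and 13103 in null libraries. The mean fell by 32.6%, with a log2 fold change of -0.57 (standard error 0.027, 95% interval -0.63 to -0.51, adjusted p = 1.5e-11 from edgeR). Ccnt2 (chromosome 1, 127774164 to 127808061, forward strand) encodes cyclin T2, the alternative partner of Cdk9. It had 8005 and 7787 normalized counts in wt and 9260 and 9279 in null libraries, with no overlap between genotypes. Its log2 fold change was 0.23 (standard error 0.026, 95% interval 0.18 to 0.29, adjusted p = 8.8e-07 from edgeR), a rise of 17.4%. Per kb of merged exons, Ccnt1 and Ccnt2 together went from 2722 ± 41.2 to 2154 ± 40.1 normalized counts (SD, n = 2), and Ccnt1 made up 76.5% ± 0.102 of that sum in wt and 65.1% ± 0.598 in null MEF cells (SD, n = 2). This sum, too, was chosen after the values had been seen.

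The 7SK complex, which holds P-TEFb in reserve, changed in opposite directions. Hexim1 (chromosome 11, 103116231 to 103119725, forward strand), the protein that inhibits Cdk9 once it is bound to 7SK RNA, had 2833 and 2738 normalized counts in wt and 1806 and 1836 in null libraries. Both null libraries lay well below both wt libraries, and the mean fell by 34.6%, more than that of any other of the 9 genes (log2 fold change -0.61, standard error 0.043, 95% interval -0.71 to -0.52, adjusted p = 2.9e-09 from edgeR). Its relative Hexim2, a gene of lower count, had 310.9 and 338.1 normalized counts in wt and 190.6 and 238.7 in null libraries, a log2 fold change of -0.59 (adjusted p = 0.00033 from edgeR). Larp7 (chromosome 3, 127536714 to 127553349, reverse strand), which binds the end of 7SK RNA, had 3695 and 3848 normalized counts in wt and 4068 and 3951 in null libraries. The genotypes did not overlap, but the gap was narrow (log2 fold change 0.088, standard error 0.036, 95% interval 0.011 to 0.16, adjusted p = 0.042 from edgeR). This call was lost with DESeq2 (adjusted p = 0.0993), without wt replicate 1 (log2 fold change 0.059, adjusted p = 0.25 from edgeR) and without Top2β-null replicate 1 (0.088, adjusted p = 0.106 from edgeR). In the fits that leave out a library, 1 genotype has a single library, which is assumed to vary like those of the other genotype. Mepce, which caps 7SK RNA, rose from 5677 and 5590 to 8580 and 8937 normalized counts (log2 fold change 0.64, adjusted p = 8.5e-12 from edgeR). Rn7sk, the 7SK RNA itself, had 273817 and 301914 normalized counts in wt and 384599 and 391346 in null libraries. It was higher in both null libraries (log2 fold change 0.43, standard error 0.040, adjusted p = 9.6e-08 from edgeR). The 7SK repeat family, which is counted separately in the same table, had a log2 fold change of 0.42, but it may hold the same reads and is not independent of Rn7sk.

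Nelfa and Supt5, which belong to the factors that hold RNAPII, showed little difference. Nelfa (chromosome 5, 33897916 to 33936413, reverse strand), a subunit of NELF, had 6145 and 6184 normalized counts in wt and 6103 and 6053 in null libraries. Its log2 fold change was -0.020 (standard error 0.027, 95% interval -0.079 to 0.038, adjusted p = 0.538 from edgeR), although both null libraries lay slightly below both wt libraries. Supt5 (chromosome 7, 28314891 to 28338746, reverse strand), the large subunit of DSIF, had 13291 and 13364 normalized counts in wt and 13361 and 13602 in null libraries, which overlap. Its log2 fold change was 0.017 (standard error 0.025, 95% interval -0.036 to 0.069, adjusted p = 0.578 from edgeR). Scaling to the total count moved Nelfa to 0.050 (adjusted p = 0.135 from edgeR) and Supt5 to 0.086 (adjusted p = 0.0076 from edgeR), so that the sign for Nelfa and the call for Supt5 depend on the scaling. With single libraries left out, Supt5 lay between 0.0065 (without Top2β-null replicate 2) and 0.051 (without Top2β-null replicate 1), and Nelfa between -0.025 (without wt replicate 1) and -0.0050 (without Top2β-null replicate 1), none of them past the threshold (edgeR). Some of their partners were lower. Supt4a, the small subunit of DSIF, fell from 2692 and 2795 to 1522 and 1618 normalized counts (log2 fold change -0.80, adjusted p = 2.7e-10 from edgeR), and the NELF subunit Nelfe fell from 4638 and 4677 to 3397 and 3503 (log2 fold change -0.43, adjusted p = 1.0e-08 from edgeR). Nelfb had a log2 fold change of -0.046 (adjusted p = 0.255 from edgeR) and Nelfcd fell by 0.20 on the log2 scale (adjusted p = 0.00025 from edgeR).

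A ratio of the counts of a pair of genes within 1 library needs no scaling between libraries. The log2 ratio of Ccnt1 to Ccnt2 was 1.27 ± 0.0082 in wt and 0.47 ± 0.038 in null MEF cells (SD, n = 2), a difference of -0.80 against a pooled SD of 0.027. That of Brd2 to Brd3 went from 2.54 ± 0.015 to 2.07 ± 0.011 (SD, n = 2), a difference of -0.47. The log2 ratio of Cdk9 to Hexim1 rose by 0.41, from 1.20 ± 0.037 to 1.61 ± 0.013 (SD, n = 2), since Hexim1 fell further than Cdk9. Against Larp7, Cdk9 went down by a log2 difference of -0.29, with a pooled SD of 0.036. The ratio of Nelfa to Supt5 changed by -0.037 against a pooled SD of 0.019, and this small difference was -0.056 without Top2β-null replicate 1 and -0.018 without Top2β-null replicate 2. For each of these 5 ratios the libraries of one genotype lay on one side of those of the other, and a two-sided exact permutation test gave p = 0.33 for each, before and after adjustment over the 5, which is the lowest this design can reach. In 2 ratios chosen after the values had been seen, Rn7sk to Hexim1 rose by a log2 difference of 1.05 (pooled SD 0.095) and Cdk9 to Rn7sk changed by -0.64 (pooled SD 0.069). Leaving out each library in turn kept the sign of all 7 differences.

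**Figure D3:**
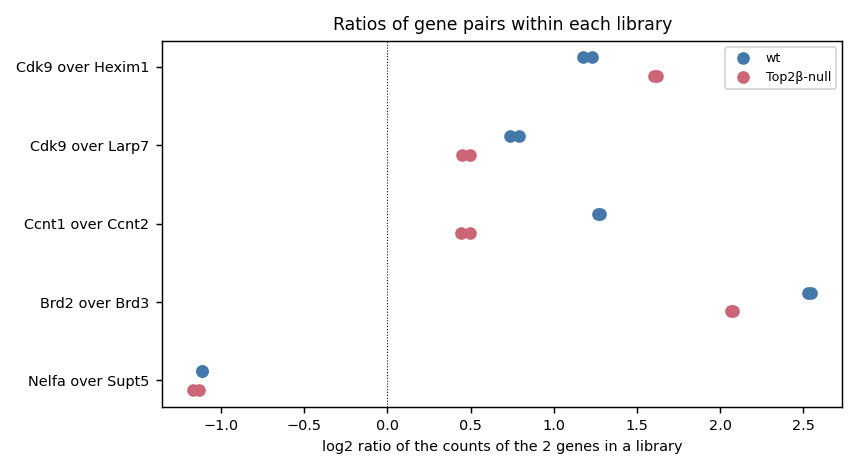
Log2 ratio of the counts of a pair of genes (horizontal axis) in each wt (blue) and Top2β-null (red) library. Blue and red points are apart for every pair. Among the 5 pairs drawn, the widest gap is that of Ccnt1 over Ccnt2, at -0.80, and the narrowest is that of Nelfa over Supt5, at -0.037.

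Levels of different genes were compared as normalized counts per kb of merged exons, with exon lengths from GENCODE M21. In wt MEF cells Brd2 stood highest at 6868 ± 20.7 (SD, n = 2), followed by Supt5 (2312 ± 9.03), Ccnt1 (2083 ± 28.8), Larp7 (1594 ± 45.7), Nelfa (1562 ± 6.99), Cdk9 (1389 ± 2.40), Brd3 (1262 ± 9.67), Hexim1 (797.1 ± 19.2) and Ccnt2 (639.6 ± 12.5). Larp7 and Nelfa did not differ beyond their spread in this order. In null MEF cells Brd2 (5499 ± 50.3) and Supt5 (2339 ± 29.5) were again the first and second. Ccnt1, at 1403 ± 39.0, went from rank 3 to rank 5 and was level with Brd3 at 1398 ± 2.21. Hexim1 became the lowest at 521.1 ± 6.08, below Ccnt2 at 750.9 ± 1.11. The order depends on the length used. With the longest transcript in place of merged exons 5 of the 9 wt ranks moved, while Brd2, Supt5, Ccnt1 and Brd3 kept theirs. With that length Hexim1 was already the lowest in wt MEF cells (797.1 against 1034 for Ccnt2), so that it and Ccnt2 did not exchange places, and Ccnt1 went from rank 3 to rank 6.

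**Figure D4:**
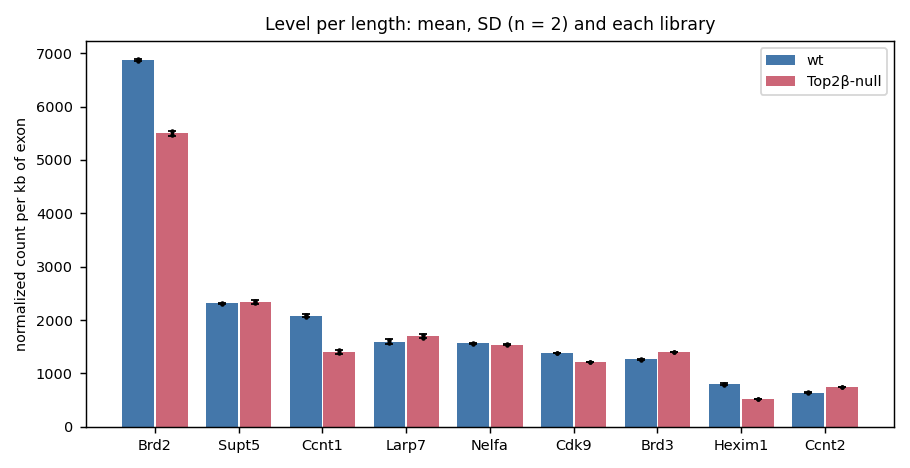
Normalized count per kb of merged exons for the 9 genes, ordered by the wt mean. Bars are means with SD (n = 2) in wt (blue) and Top2β-null (red) MEF cells, and dots are libraries. Brd2 is the highest in both genotypes, and Hexim1 and Ccnt2 exchange their order, which they do not with the longest transcript as the length.

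The 9 genes work with a larger machinery, and 77 other genes of it were tested in 8 lists. Of these, 26 were higher and 30 lower in null MEF cells at an adjusted p below 0.05 (edgeR), which makes 72.7%. That stands against 65.0% of all features and 79.0% of the protein-coding genes tested. The median log2 fold change of the 77 genes was -0.0013 against 0.0027 for all features. Scaling to the total count turned this split to 38 higher and 23 lower, and that of all features to 37.7% and 28.7%. The counts of single lists below are small, were not tested against other genes, and stand beside 32.5% of all features higher and 32.5% lower. By the cut-offs of the study's methods 5 were called (6.49%, against 10.2% of all features): Ell2, Mllt3, Aff3, Ints9 and Polr2a, of which Mllt3 is named because its values were seen. Ints9 and Aff3 lie close to the cut-off on fold change. Without Top2β-null replicate 1, or with scaling to the total count, Ints9 no longer passed it (-0.99 and -0.98), and without wt replicate 2 or Top2β-null replicate 2 Aff3 did not (-0.99 and -0.97).

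Of 13 RNAPII subunits, 9 were lower and 3 higher (edgeR, median log2 fold change -0.17), and with scaling to the total count 6 were lower and 3 higher. Polr2a, which encodes the catalytic subunit whose tail P-TEFb phosphorylates, had 120400 and 122140 normalized counts in wt and 29125 and 30325 in null libraries. This difference (log2 fold change -2.03, standard error 0.030, adjusted p = 6.0e-18 from edgeR) was the greatest in absolute size among the 77 genes. Polr2b, the second largest subunit, did not follow, at a log2 fold change of -0.013 (adjusted p = 0.675 from edgeR). Per kb of merged exons Polr2a stood at 17160 ± 174.1 normalized counts in wt and 4206 ± 120.0 in null MEF cells (SD, n = 2), whereas Polr2b had 3352 ± 85.2 and 3321 ± 7.56. The log2 count ratio of Polr2a to Polr2b was 2.95 ± 0.022 in wt and 0.94 ± 0.038 in null MEF cells (SD, n = 2), a ratio chosen after the values had been seen. Whether Polr2a was altered in either cell line is not given in the sources used here, and this limits what its level says of RNAPII. Polr2k, a small subunit shared by the nuclear RNA polymerases, fell by 0.68 on the log2 scale (adjusted p = 6.5e-09 from edgeR).

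The super elongation complex, which carries P-TEFb to paused polymerases, had 5 of 10 genes higher and 3 lower (edgeR, median log2 fold change 0.039). Thus 8 of 10 were called, against 65.0% of all features and 79.0% of the protein-coding genes tested. With scaling to the total count 5 were higher and 2 lower (median 0.11). Ell2, an elongation factor of this complex, rose from 3778 and 3964 to 12494 and 12581 normalized counts (log2 fold change 1.70, adjusted p = 4.1e-17 from edgeR). Its scaffold Aff4 rose from 18711 and 18579 to 32560 and 32906 (log2 fold change 0.81, adjusted p = 5.4e-14 from edgeR), and Mllt3, a reader of acylated histones, rose from 6167 and 6145 to 13174 and 13158 (log2 fold change 1.10, adjusted p = 1.7e-15 from edgeR). Other scaffolds went down, with Aff1 at a log2 fold change of -0.32 (adjusted p = 8.7e-09 from edgeR) and Aff3, at 72.3 to 198.0 normalized counts, at -1.14 (adjusted p = 2.4e-05 from edgeR). Aff4 and Aff1 were chosen after their values had been seen.

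Of the 7 other 7SK genes tested, beside Hexim1 and Larp7, 5 were higher and 2 lower (edgeR, median log2 fold change 0.43), with the RNA-binding protein Syncrip at 0.66. Of the 5 other NELF and DSIF genes 3 were lower and none was higher (edgeR, median -0.43), counts that scaling to the total count left as they were. Among BET proteins and their partners, 3 of 6 were higher and 1 lower (median 0.11). There, Nsd3, a histone methyltransferase that binds BET proteins, had a log2 fold change of 0.40 and Jmjd6, a hydroxylase, one of -0.33. With scaling to the total count 4 genes of the BET list were higher and 1 lower (median 0.18). Of 9 other transcription kinases and cyclins, 4 were higher and 3 lower (median 0.018), from -0.65 for the Mediator kinase Cdk19 to 0.52 for the elongation kinase Cdk13. With scaling to the total count 5 genes of this list were higher and 2 lower (median 0.088). The PAF complex and general elongation factors spanned the narrowest range of the 8 lists, with 2 of 13 higher, 3 lower and 8 not past the threshold (median 0.034). Scaling to the total count made these 9 higher and 2 lower (median 0.10). Their greatest changes were those of Ssrp1, a subunit of the histone chaperone FACT (-0.24), and of Ctr9, a PAF subunit (-0.20). Of 14 Integrator genes 4 were higher and 6 lower (median -0.019), a split that scaling to the total count turned to 7 higher and 5 lower (median 0.051). Ints9, a subunit of the module that cuts RNA, fell from 3368 and 3495 to 1622 and 1701 normalized counts (log2 fold change -1.05, adjusted p = 3.5e-12 from edgeR), and Ints10 had a log2 fold change of -0.95.

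**Figure D5:**
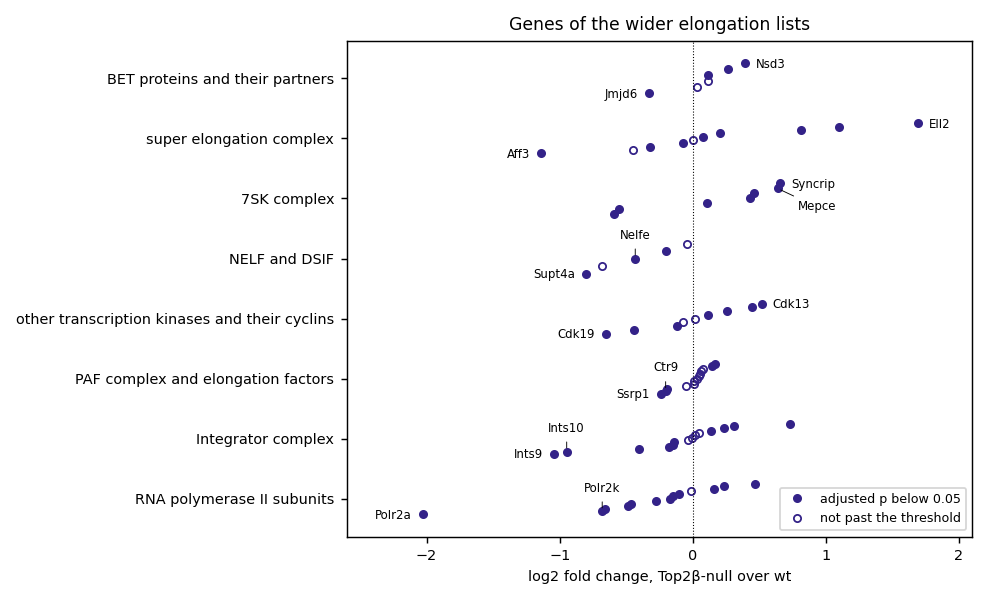
Log2 fold change in Top2β-null over wt MEF cells for 77 genes in 8 lists of the elongation machinery. Filled circles passed an adjusted p below 0.05 (edgeR) and open circles did not, and the 2 genes named in each list are those with the greatest absolute change among the filled ones. Polr2a at -2.03 and Ell2 at 1.70 mark the ends, and the PAF list stays within -0.24 and 0.17.

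Genome neighbours were taken as the nearest tested protein-coding gene on each side. Around Hexim1 both neighbours were also lower in null MEF cells, as were 32.5% of all features (adjusted p below 0.05, edgeR). Whether the position of these genes plays a part was not tested. Acbd4, which ends 4030 bases before Hexim1, fell from 1699 and 1553 to 769.5 and 789.4 normalized counts (log2 fold change -1.06, adjusted p = 1.4e-10 from edgeR), and Hexim2 follows 12703 bases downstream. Around Ccnt1 the neighbours differed. Kansl2, a subunit of a histone acetyltransferase complex on the same strand, fell from 23325 and 24063 to 13962 and 13961 normalized counts (log2 fold change -0.76, adjusted p = 1.9e-13 from edgeR). By contrast, 4930415O20Rik, on the other strand, had 104.0 and 84.0 normalized counts in wt and 109.8 and 93.1 in null libraries (log2 fold change 0.11, adjusted p = 0.628 from edgeR). This gene starts 81 bases from the outermost GENCODE start of Ccnt1, which is not the RefSeq start whose promoter is shown above. Over the 4 libraries, the pattern of Hexim1 was most closely matched by those of Top1mt, Sike1 and Lrrc57. Their log2 normalized counts, centred on each gene's mean, had Euclidean distances to Hexim1 of 0.0058, 0.0080 and 0.012 among 24344 genes.

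Reads of some members could also fall on other annotations. On the opposite strand, 9330020H09Rik shares 648 exonic bases with Ccnt1 and had 931 and 1027 raw counts in wt and 662 and 641 in null libraries, against 12164 or more for Ccnt1. Gm44709 shares 375 exonic bases with Supt5 on the opposite strand, with 1096 to 1196 raw counts. Brd2 shares 316 exonic bases with H2-DMa on the other strand, which had 39 to 73 raw counts, and Nelfa (5893 to 6402 raw counts) overlaps Nsd2 (38691 to 40648) by 60 bases. The library kit keeps strand, but whether the counting used it is not given in the sources used here. Larp7 shares 764 bases at 98.4% identity with Gm12666, which had 19 to 37 raw counts, and Cdk9 shares stretches of 102 to 151 bases at about 95% identity with Stx5a (3365 to 3530 raw counts), Nrip2 (609 to 799) and Hectd4 (10494 to 12261), against 5363 to 6638 for Cdk9. For Brd3, Ccnt2, Hexim1 and Nelfa no transcript of another gene shared 100 or more bases at 95% identity.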

How the data were processed

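Libraries were made from total RNA after ribosomal RNA depletion and read from both ends. The authors used Trim Galore! for trimming and STAR for alignment to mm10 (GRCm38), with multi-mapping reads retained, and TEtranscripts for counting over genes and repeat families. The deposited values are these raw counts per library, not normalized. The counting mode and strand setting are not given in the sources used here, so counts of overlapping or similar genes may share reads.

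Symbols and lengths were matched by Ensembl identifier to GENCODE M21 (54409 of 54842 genes). A feature was tested if 2 or more libraries had 10 or more counts, with edgeR 4.0.16 (R 4.3.3), with TMM factors over genes and repeats and genotype as the only term. Normalized counts are counts brought to a common effective library size (their geometric mean). Standard errors were taken from F, as the size of the log2 fold change over its square root. The test was checked on simulated data. DESeq2 1.42.0, other scalings and filters, a replicate block and leaving out each library were the alternatives.

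The 9 genes and the lists were chosen with earlier results of these data known. Named genes are the 9 members, Top2b, the 2 genes per list with the greatest absolute change among called genes whose genotypes do not overlap, neighbours of members with an absolute log2 fold change above 0.5, the 3 genes nearest to Hexim1 in pattern, and others said to be chosen after their values were seen. Rn7sk, Hexim2, Nelfb, Nelfcd and Polr2b were also chosen in that way. The libraries of a genotype were not copies of each other, since their chi-square over its degrees of freedom was 3.65 (wt) and 5.07 (null).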

Additional observations from a re-analysis of the deposited data

How the results depend on the processing

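Brd2, Brd3, Cdk9, Ccnt1, Ccnt2 and Hexim1 were called in the same direction in all 10 alternatives, among them each library left out. A fit without 1 library takes its spread from the other genotype's pair and assumes that the lone library varies likewise, so its p-value is weak support. Over fits of all libraries Hexim1 ranged from -0.61 to -0.54 and Ccnt1 from -0.57 to -0.50, the upper ends from scaling to the total count. Larp7 had a log2 fold change of 0.096 with DESeq2 (adjusted p = 0.0993), and from 0.059 to 0.12 when single libraries were left out, not past the threshold without wt replicate 1 or Top2β-null replicate 1. Scaling to the total count moved Nelfa from -0.020 to 0.050 and Supt5 from 0.017 to 0.086 (adjusted p = 0.0076, edgeR), while the median of all features went from 0.0027 to 0.073. The cause was not tested. Of 159 alternative values for the 16 genes named by the list rule, none changed its direction or its side of an adjusted p of 0.05. By the study's cut-offs 4 or 5 of the 77 genes were called in every alternative, and the gene lost was Ints9 (total count, without Top2β-null replicate 1) or Aff3 (at least 100 counts in every library, which left it untested, and without wt replicate 2 or Top2β-null replicate 2). The log2 difference of Rn7sk to Hexim1 was 0.95 to 1.14 with each library left out.

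Both genotypes carry replicate numbers 1 and 2, but over 17952 features (not independent) the deviations from the group means of libraries with 1 number correlated at only 0.0197, and nothing shows that the numbers pair the libraries. With the replicate block the log2 fold change of Hexim1 was -0.61 and that of Larp7 0.088 (adjusted p = 0.046, edgeR), no call on the 9 genes changed, and 16992 features were called in place of 17257.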
